A study of Mus musculus with 12 samples.

Results

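The 9 genes described here are Icam1, Vcam1, Fut2, B3gnt3, Ceacam1, Cdh1, Epcam, Cd55 and Anxa1. They encode adhesion and other surface proteins, enzymes that build surface sugars, and annexin A1. Some of the proteins, or their human counterparts, are bound by bacteria or by leukocytes. The genes were taken by name from a table of 25759 genes. Of these, 9 of 9 passed the filter on low counts that left 12805 genes for testing. RNA was sequenced from 12 libraries of mouse gastric organoids, which are epithelial structures grown in a gel from stomach tissue. There were 3 libraries in each of 4 groups: organoids kept for 4 h with Fusobacterium nucleatum, with Helicobacter pylori or with Neisseria subflava, and untreated organoids. All groups came from first-passage organoids plated on matrigel in a medium that lacked growth factors and antibiotics. The labels give neither the mouse strain nor the dose or strain of the bacteria, and they do not say whether replicates were separate cultures, so each p-value reflects the spread between libraries, which may be technical.

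Bacteria of the stomach and mouth reach the epithelium through surface proteins and through sugars on mucins. As background, an outer membrane protein of Helicobacter pylori and the Opa proteins of Neisseria bind human CEACAM proteins, the adhesin FadA of Fusobacterium nucleatum binds E-cadherin, and the adhesin BabA of Helicobacter pylori binds fucosylated blood group antigens that FUT2 helps to make in human stomach. ICAM1 and VCAM1 serve the opposite partner: on inflamed cells they hold leukocytes by their integrins. CD55 protects cells from complement and is a receptor of some bacterial adhesins in human cells, EpCAM is an adhesion protein of epithelia, and annexin A1 is a phospholipid-binding protein that restrains leukocyte recruitment.

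Each library held 16955155 to 23236260 counts. All 11 gastric epithelial markers listed had counts, and they summed to 230959 to 360566 counts in each library. The 8 endothelial markers summed to 81 to 106 counts per library with Fusobacterium, 52 to 73 with Helicobacter, 32 to 66 with Neisseria and 67 to 101 in untreated organoids, and the 8 markers of fibroblasts and mesenchyme to 133 to 194, 194 to 239, 185 to 261 and 200 to 283 counts in the same order. The 7 leukocyte markers summed to 1056 to 1156, 2907 to 3256, 3712 to 4409 and 2337 to 3180 counts, nearly all of them from Cd14 and Cd68, and Cd3e had at most 3 counts over the libraries of any group. Transcripts of pancreatic islets stood at 3115 to 3636 counts over 9 markers in each untreated library, at 2557 in Helicobacter replicate 1, at 1 and 61 in the other Helicobacter libraries, at 5 to 17 with Fusobacterium and at 4 to 14 with Neisseria, so 4 libraries stood apart in this respect. The comparison of Helicobacter with untreated organoids is also given without Helicobacter replicate 1 for each of the 9 genes. That leaves 1 and 61 islet counts against 3115 to 3636 in untreated organoids, so it does not remove this difference. Islet transcripts and treatment then cannot be told apart, as with Fusobacterium and Neisseria. The part of these transcripts in any result was not tested. In bulk RNA, fewer cells of a type and less RNA per cell cannot be told apart.

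Levels are given as TPM, a number of transcripts that corrects for gene length and sums to the same total in each library. Changes are log2 fold changes ± standard error from edgeR's quasi-likelihood test on counts with TMM scaling and with Benjamini-Hochberg adjustment over all 12805 genes, and a gene is said to rise or fall where its adjusted p was under 0.05. Both scales are needed with Neisseria: without TMM scaling the median of all genes moved by -0.18 in counts scaled to the library total and by -0.20 in TPM, against -0.02 with TMM scaling. With Helicobacter these medians were -0.06, -0.09 and 0.00, and with Fusobacterium 0.01, 0.01 and 0.00.

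When the 4 groups were tested together for any difference, 8 of the 9 genes passed, where 80.8% of all genes tested did. The exception was Cd55 (adjusted p = 0.0747). With Fusobacterium, 3 of the 9 genes rose (Icam1, Vcam1 and Anxa1), where 32.8% of all genes rose, and 4 fell (Fut2, B3gnt3, Ceacam1 and Cd55), where 32.4% of all genes fell. With Helicobacter, 2 rose (Epcam and Anxa1) against 10.5% of all genes, and 2 fell (Ceacam1 and Fut2) against 8.36%. With Neisseria, 4 rose (Vcam1, Icam1, Anxa1 and Epcam) against 25.4% of all genes, and 2 fell (Fut2 and B3gnt3) against 25.5%. These splits depend on the scaling: with the library total alone, 0 rose and 4 fell with Helicobacter and 3 rose and 5 fell with Neisseria, and limma on log2(TPM + 1) gave 0 and 5, and 3 and 5. With Fusobacterium the library total alone gave 3 and 3, and limma 3 and 2. Among all genes, 2687 passed with Helicobacter with the library total alone, and 863 of these rose. With Neisseria 7386 passed and 1984 rose, and with Fusobacterium 8309 and 4278. In limma, 2732 passed and 654 rose with Helicobacter, 7460 and 1683 with Neisseria, and 7869 and 4114 with Fusobacterium. With Helicobacter and Neisseria most of all genes that passed thus fell in these 2 analyses. The median change of the 9 genes was 0.00 with Fusobacterium, -0.06 with Helicobacter and 0.08 with Neisseria, the last turning to -0.09 with the library total alone and to -0.13 on the log2(TPM + 1) scale. The 3 comparisons share their untreated libraries.

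**Figure D1:**
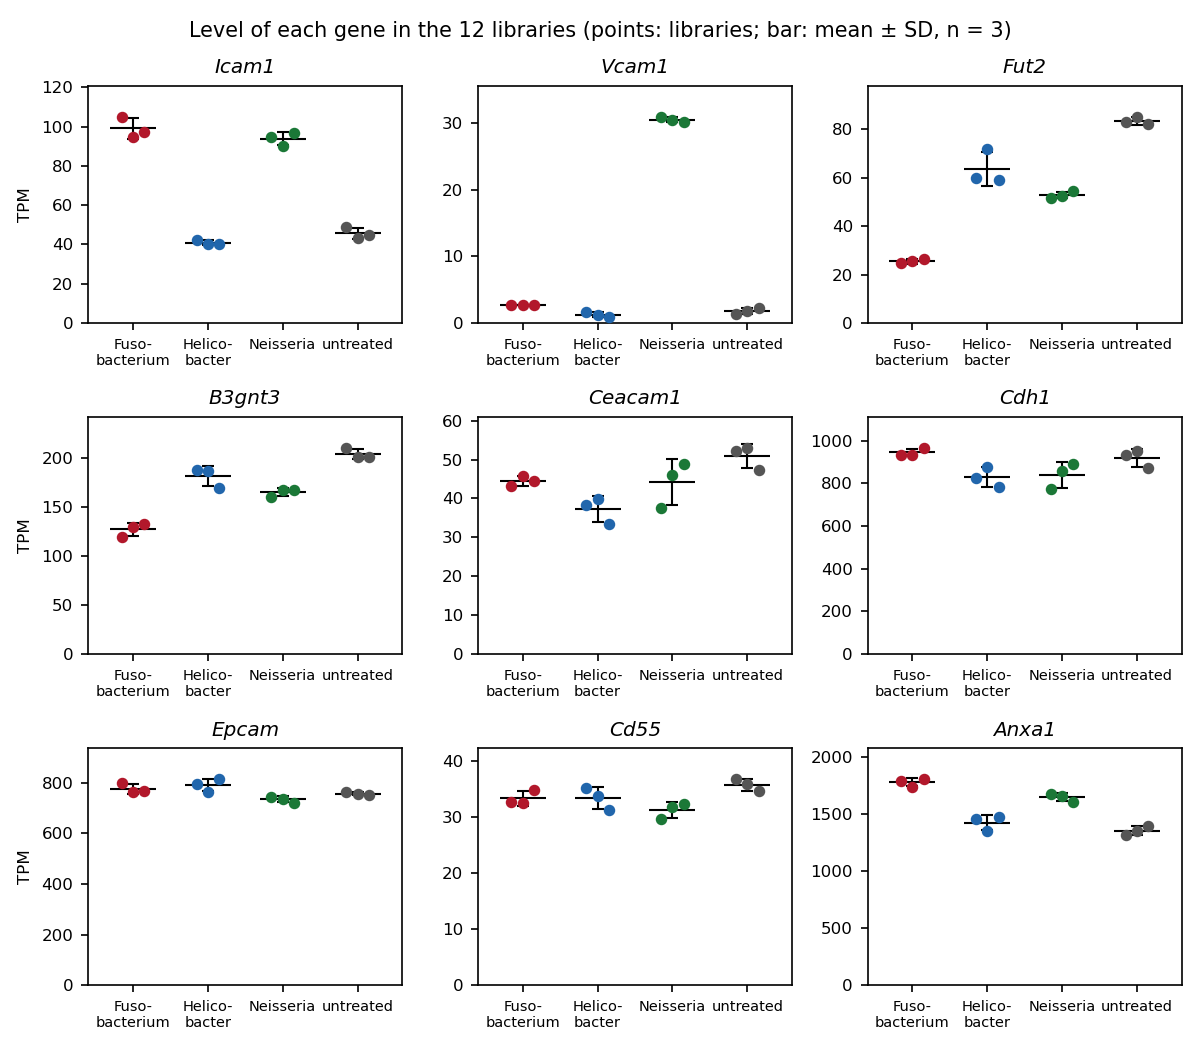
TPM of the 9 genes in the 12 libraries, by group, on linear axes that start at 0; points are libraries and bars are the mean ± SD of 3 libraries. Icam1 stood near 100 TPM with Fusobacterium and Neisseria and under 50 TPM in the other groups, Vcam1 was high with Neisseria alone among the 4 groups, and Fut2 was lowest with Fusobacterium.

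The leukocyte ligands rose with Fusobacterium and Neisseria. Icam1 (ENSMUSG00000037405, GRCm38 chromosome 9, 21015985 to 21028817, plus strand), the ligand of the leukocyte integrins LFA-1 and Mac-1, stood at 105, 94.9 and 97.2 TPM with Fusobacterium, at 42.2, 40.1 and 40.4 TPM with Helicobacter, at 94.9, 90.3 and 96.5 TPM with Neisseria, and at 48.8, 43.5 and 44.8 TPM in untreated organoids. Every library with Fusobacterium or Neisseria lay above every untreated library, and those 2 groups overlapped each other. Each Helicobacter library lay below each untreated library, by a margin under the spread of the untreated ones.

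Icam1 averaged 99.0 ± 5.26 TPM with Fusobacterium and 45.7 ± 2.76 TPM in untreated organoids (SD, n = 3 each), and its log2 fold change was 1.08 ± 0.06 (adjusted p = 2.47e-13). With Neisseria it averaged 93.9 ± 3.21 TPM and changed by 1.24 ± 0.06 (adjusted p = 1.61e-14). With Helicobacter it averaged 40.9 ± 1.16 TPM, and the change of -0.06 ± 0.06 did not pass (adjusted p = 0.536, 95% interval -0.19 to 0.07), although on the log2(TPM + 1) scale limma gave -0.155 (adjusted p = 0.0491). Without Helicobacter replicate 1 it was -0.09 (adjusted p = 0.43). The rises with Fusobacterium and Neisseria passed in 23 of 23 alternative analyses, with ranges of 1.03 to 1.12 and 0.96 to 1.29. Of the 50-base stretches of the Icam1 transcripts, 13.1% are also in other genes, most of them in Gm47079, which overlaps Icam1 on the opposite strand.

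The promoter window of Icam1 is shown because it holds a short sequence of the kind that NF-kB, a regulator of inflammatory genes, binds in the human ICAM1 promoter. The window is chr9:21015690-21015989 (plus strand), 250 bases before to 50 after the RefSeq start on GRCm38.p6, and capitals mark GGAAATTCC and TATAAA.
Icam1: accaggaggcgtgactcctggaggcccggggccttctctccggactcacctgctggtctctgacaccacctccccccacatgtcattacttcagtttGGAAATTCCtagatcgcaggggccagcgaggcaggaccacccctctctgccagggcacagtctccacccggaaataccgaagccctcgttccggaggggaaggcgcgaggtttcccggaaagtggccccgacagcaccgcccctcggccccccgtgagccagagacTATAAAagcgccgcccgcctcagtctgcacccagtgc
The letters GGAAATTCC began 153 bases before the RefSeq start, on the plus strand, and TATAAA at position 14 after it. Both stretches lie before the gene start given above, 21015985, which falls near the end of this window. Of 32851 promoter windows of this length, 0.317% held GGAAATTCC on either strand and 13.6% held TATAAA. Windows for 6 of the 9 genes were in the RefSeq table (Icam1, B3gnt3, Ceacam1, Epcam, Cd55 and Anxa1), and GGAAATTCC was in 1 of these. None of the 6 held a match to the NF-kB consensus, against 4.51% of all windows, or the AP-1 letters TGANTCA, against 7.81%. The letters GCGTG were in 2 of the 6 and in 32.4% of all windows, and ACGTG in 3 of the 6 and in 19.6% of all windows. These are matches of letters on both strands and not measured sites.

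Vcam1 (ENSMUSG00000027962, chromosome 3, 116109949 to 116129688, minus strand), the ligand of the integrin VLA-4 and best known from activated endothelium, was scarce except with Neisseria. It stood at 2.66, 2.69 and 2.75 TPM with Fusobacterium, at 1.61, 1.23 and 0.914 TPM with Helicobacter, at 31.0, 30.5 and 30.2 TPM with Neisseria, and at 1.43, 1.78 and 2.24 TPM in untreated organoids. In counts this was 1616, 1344 and 1308 with Neisseria, against 72, 68 and 100 in untreated organoids. All Neisseria libraries lay far above the rest, the Fusobacterium libraries lay just above the untreated ones, and the Helicobacter libraries overlapped the untreated ones.

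With Neisseria, Vcam1 rose 19.5-fold (log2 fold change 4.28 ± 0.13, adjusted p = 2.41e-18). In rank among the 12805 genes tested it stood at 4093 with Neisseria and at 10880 in untreated organoids, counting from the highest mean TPM. Of the 8 endothelial markers, over the 3 Neisseria libraries, Emcn had 0 counts, Tie1 2, Pecam1 11, Kdr 15, Vwf 8 and Tek 86, against 2, 6, 16, 21, 24 and 178 in untreated organoids, while Cdh5 had 20 counts against 16 and Cldn5 2 against 0. Of the 3 endothelial markers tested, 0 rose and 1 fell (Tek, -0.89 ± 0.29, adjusted p = 0.0149). All 3 leukocyte markers tested rose, where 25.4% of all genes rose and 25.5% fell with Neisseria. Ptprc had 92 counts over the Neisseria libraries and 24 over the untreated ones. The part of endothelium or leukocytes in the result was not tested.

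With Fusobacterium, Vcam1 changed by 0.55 ± 0.16 (adjusted p = 0.00505), a rise that rests on about 100 counts per library. It was 0.37 (adjusted p = 0.0566) without untreated replicate 1, and it passed in the other 22 alternatives. Beside it, Kdr, a receptor of endothelium, had 88 counts over the Fusobacterium libraries and 21 over the untreated ones (log2 fold change 2.22 ± 0.53, adjusted p = 0.000762), while Pecam1 had 15 and 16 counts; the part of endothelium in the result was not tested. With Helicobacter, the change of Vcam1 was -0.41 ± 0.18 (adjusted p = 0.114, 95% interval -0.78 to -0.04). It passed without Helicobacter replicate 1 (-0.65, adjusted p = 0.0246) and without untreated replicate 1 (-0.58, adjusted p = 0.0378).

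**Figure D2:**
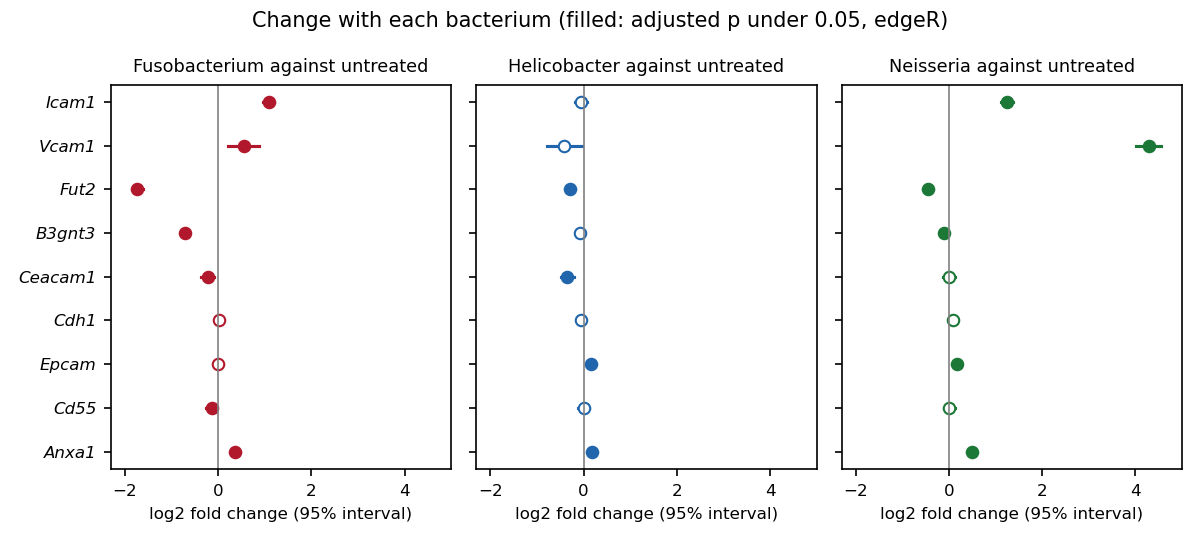
Log2 fold change of each gene with each bacterium against untreated organoids, with 95% intervals from edgeR; filled points passed an adjusted p of 0.05. Vcam1 with Neisseria (4.28) and Fut2 with Fusobacterium (-1.74) lie farthest from 0, and Cdh1 and Epcam stay within 0.17 of it in each panel.

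The 2 enzymes that build sugar receptors were lower with Fusobacterium. Fut2 (ENSMUSG00000055978, chromosome 7, 45648591 to 45666394, minus strand), the fucosyltransferase that makes H antigen on mucosal glycans, stood at 24.6, 25.4 and 26.6 TPM with Fusobacterium, at 60.0, 71.7 and 59.0 TPM with Helicobacter, at 51.8, 52.5 and 54.5 TPM with Neisseria, and at 82.9, 85.2 and 82.4 TPM in untreated organoids. The groups did not overlap in any pair, and all 9 libraries with bacteria lay below the 3 untreated ones. Fut2 fell in all 3 comparisons with untreated organoids, and with the library total alone B3gnt3 and Ceacam1 did so too. The share of all genes that fell in all 3 was not counted.

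Fut2 averaged 25.6 TPM (24.6 to 26.6 TPM) with Fusobacterium and 83.5 ± 1.48 TPM in untreated organoids (SD, n = 3), and its log2 fold change was -1.74 ± 0.06 (adjusted p = 1.90e-17), which leaves 0.30 of the untreated level. It changed by -0.45 ± 0.05 with Neisseria (52.9 ± 1.40 TPM, adjusted p = 1.80e-07) and by -0.30 ± 0.05 with Helicobacter (63.6 ± 7.07 TPM, adjusted p = 0.000296). In each comparison it passed in 23 of 23 alternatives, among them the one without Helicobacter replicate 1 (-0.26, adjusted p = 0.00416). Its rank among the genes tested was 5115 with Fusobacterium and 1831 in untreated organoids. Beside this, 9 of the 11 gastric epithelial markers fell with Fusobacterium and 1 rose, where 32.4% of all genes fell and 32.8% rose. The part of the makeup of the epithelium in the fall of Fut2 was not tested.

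B3gnt3 (ENSMUSG00000031803, chromosome 8, 71690756 to 71701789, minus strand), which extends core 1 O-glycans with N-acetylglucosamine, stood at 119.5, 129 and 132 TPM with Fusobacterium, at 187, 187 and 169 TPM with Helicobacter, at 159.8, 167 and 167 TPM with Neisseria, and at 209.8, 200.2 and 200.5 TPM in untreated organoids. The 4 groups did not overlap in TPM, with the untreated libraries highest. The change was -0.71 ± 0.04 with Fusobacterium (adjusted p = 1.11e-12), and it passed in 23 of 23 alternatives.

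With Neisseria, B3gnt3 fell by 0.10 ± 0.04 on the log2 scale under TMM scaling (adjusted p = 0.0479), with a range of -0.31 to -0.09 over the alternatives, and this call was lost in 14 of 23 alternatives, among them DESeq2 (adjusted p = 0.0533) and those without Fusobacterium replicate 2 or 3, Helicobacter replicate 2, any 1 of the Neisseria replicates, or untreated replicate 1 or 3 (adjusted p up to 0.165). Scaled to the library total or in TPM it was called, and the low end of that range is from TPM. With Helicobacter the change was -0.07 ± 0.04 (adjusted p = 0.268) and passed only without TMM scaling (-0.13, adjusted p = 0.0283) or in TPM (-0.17, adjusted p = 0.0199). Without Helicobacter replicate 1 it was -0.10 (adjusted p = 0.157).

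Among the genes whose human counterparts are receptors of bacteria, Ceacam1 was lower with 2 bacteria. Ceacam1 (ENSMUSG00000074272, chromosome 7, 25461707 to 25477603, minus strand), a cell adhesion molecule of epithelia and leukocytes, stood at 43.2, 45.7 and 44.4 TPM with Fusobacterium, at 38.3, 39.8 and 33.5 TPM with Helicobacter, at 37.6, 46.1 and 48.9 TPM with Neisseria, and at 52.2, 53.0 and 47.4 TPM in untreated organoids. All Fusobacterium and Helicobacter libraries lay below all untreated ones, and the Neisseria libraries spread from below to within the untreated range.

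Ceacam1 changed by -0.35 ± 0.07 with Helicobacter (37.2 ± 3.29 TPM against 50.8 ± 3.04 TPM in untreated organoids, adjusted p = 0.000449), and by -0.38 without Helicobacter replicate 1 (adjusted p = 0.00161). It passed there in 23 of 23 alternatives. With Fusobacterium it changed by -0.23 ± 0.07 (44.4 ± 1.23 TPM, adjusted p = 0.00417), which passed in each edgeR and DESeq2 analysis but not on the log2(TPM + 1) scale (-0.19, adjusted p = 0.0629). With Neisseria the change was 0.00 ± 0.06 (44.2 ± 5.92 TPM, adjusted p = 0.993, 95% interval -0.13 to 0.13) under TMM scaling and -0.17 (adjusted p = 0.044) with the library total alone. Of the 7 other CEACAM genes listed, none passed the filter on low counts, so Ceacam1 was the only tested gene of its family. Of its 50-base stretches, 30.4% are also in other genes, first of all in Ceacam2 and Ceacam10, which had 9 counts and 1 count over all libraries.

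Cdh1 (ENSMUSG00000000303, chromosome 8, 106603351 to 106670246, plus strand) encodes E-cadherin, the adhesion protein of adherens junctions. It stood at 934, 933 and 966 TPM with Fusobacterium, at 825, 876 and 785 TPM with Helicobacter, at 773, 858 and 890.3 TPM with Neisseria, and at 931, 952 and 871 TPM in untreated organoids. Each group with bacteria overlapped the untreated libraries. Under TMM scaling no comparison with untreated organoids passed: the change was 0.01 ± 0.04 with Fusobacterium (95% interval -0.07 to 0.09), -0.05 ± 0.04 with Helicobacter (-0.13 to 0.03) and 0.08 ± 0.04 with Neisseria (0.00 to 0.16), the last turning to -0.09 (adjusted p = 0.0498) with the library total alone and to -0.13 in TPM. With Helicobacter it was -0.05 (adjusted p = 0.491) without Helicobacter replicate 1, but it passed with the library total alone (-0.11, adjusted p = 0.0468) and on the log2(TPM + 1) scale (-0.15, adjusted p = 0.047). Under TMM scaling Cdh1 passed with Neisseria without Neisseria replicate 1 (0.11, adjusted p = 0.032) and without Helicobacter replicate 2 (0.08, adjusted p = 0.048).

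Epcam (ENSMUSG00000045394, chromosome 17, 87635979 to 87651106, plus strand) encodes the epithelial adhesion protein EpCAM. It stood at 799.9, 763 and 768 TPM with Fusobacterium, at 795, 766 and 816 TPM with Helicobacter, at 746, 737 and 722 TPM with Neisseria, and at 764, 756 and 754 TPM in untreated organoids. In TPM the Helicobacter libraries lay above and the Neisseria libraries below every untreated library, and the Fusobacterium libraries overlapped them. Group means lay between 735 TPM with Neisseria and 792 TPM with Helicobacter.

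The change of Epcam was 0.00 ± 0.05 with Fusobacterium (95% interval -0.09 to 0.10), 0.17 ± 0.05 with Helicobacter (adjusted p = 0.0136) and 0.16 ± 0.05 with Neisseria (adjusted p = 0.00575). The rise with Neisseria is one only relative to the shift of all genes. The change was -0.01 with the library total alone and -0.04 on the log2(TPM + 1) scale. In those analyses the medians of all genes were -0.18 and -0.20. The rise with Helicobacter was also lost in these 2 analyses (0.10, adjusted p = 0.0729, and 0.06, adjusted p = 0.151) and without Helicobacter replicate 1 (0.16, adjusted p = 0.0504), Helicobacter replicate 3, untreated replicate 1 or untreated replicate 2 (adjusted p up to 0.0889).

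Cd55 (ENSMUSG00000026399, chromosome 1, 130439027 to 130462744, minus strand), decay accelerating factor of complement, stood at 32.8, 32.5 and 34.9 TPM with Fusobacterium, at 35.2, 33.8 and 31.3 TPM with Helicobacter, at 29.8, 31.8 and 32.3 TPM with Neisseria, and at 36.9, 35.9 and 34.7 TPM in untreated organoids. The Neisseria libraries lay below the untreated ones and the other groups overlapped them. The change was -0.13 ± 0.06 with Fusobacterium (adjusted p = 0.0439), a call that was lost in 15 of 23 alternatives, among them those without Fusobacterium replicate 1 or 2 or any 1 of the untreated replicates (adjusted p up to 0.132). With Helicobacter it was 0.00 ± 0.06 (95% interval -0.12 to 0.12), turning to -0.06 with the library total alone, to -0.10 on the log2(TPM + 1) scale and to -0.05 without Helicobacter replicate 1, none of which passed. With Neisseria it was 0.01 ± 0.06 (-0.11 to 0.13) under TMM scaling and -0.16 (adjusted p = 0.0214) with the library total alone. Of the 50-base stretches of Cd55, 9.12% are also in other genes, first of all in Cd55b, which had 12 counts over all libraries.

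Anxa1 was the most abundant of the 9 genes in each group and was higher with Fusobacterium and Neisseria. Anxa1 (ENSMUSG00000024659, chromosome 19, 20373428 to 20390944, minus strand) stood at 1789, 1736 and 1806 TPM with Fusobacterium, at 1451, 1347 and 1472 TPM with Helicobacter, at 1676, 1658 and 1606 TPM with Neisseria, and at 1313, 1349 and 1392 TPM in untreated organoids. The Fusobacterium and Neisseria libraries lay above every untreated library, and the Helicobacter libraries overlapped them.

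The change of Anxa1 was 0.36 ± 0.05 with Fusobacterium (1777 ± 36.3 TPM against 1351 ± 39.4 TPM in untreated organoids, adjusted p = 2.33e-06) and 0.49 ± 0.05 with Neisseria (1647 ± 36.1 TPM, adjusted p = 5.04e-08), and both passed in 23 of 23 alternatives. With Helicobacter it was 0.18 ± 0.05 (1423 ± 66.8 TPM, adjusted p = 0.0188), which was lost with the library total alone (0.12, adjusted p = 0.0737), on the log2(TPM + 1) scale (0.07, adjusted p = 0.145) and without Helicobacter replicate 1 (0.16, adjusted p = 0.081), Helicobacter replicate 3, untreated replicate 1 or untreated replicate 2 (adjusted p up to 0.109). Its promoter window, shown as that of the most abundant of these genes and in the same way as that of Icam1, is chr19:20390622-20390921 (minus strand), with TATAAA in capitals 32 bases before the RefSeq start.
Anxa1: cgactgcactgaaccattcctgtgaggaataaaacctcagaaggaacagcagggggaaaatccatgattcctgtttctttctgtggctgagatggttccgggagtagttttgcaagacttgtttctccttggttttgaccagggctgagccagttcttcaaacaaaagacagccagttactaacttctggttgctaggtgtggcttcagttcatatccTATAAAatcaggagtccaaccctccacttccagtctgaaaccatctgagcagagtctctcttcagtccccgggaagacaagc
Of the 9 genes, Anxa1 and Ceacam1 lie within the spans of annotated genes of the opposite strand, introns included, along their whole length. Such spans cover 511, 781 and 169 bases of the exons of Icam1, Vcam1 and Cd55. Of the 2998 stretches of 50 bases in Anxa1 transcripts, 0 are also in transcripts of other genes. Those of Ceacam1 are shared most with Ceacam2, Ceacam10 and Nlgn3, not with its antisense partner. Whether the counting used strand is not given in the sources used here. Any reads of antisense partners that fall on exons of the 5 genes therefore cannot be told apart from their own.

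**Figure D3:**
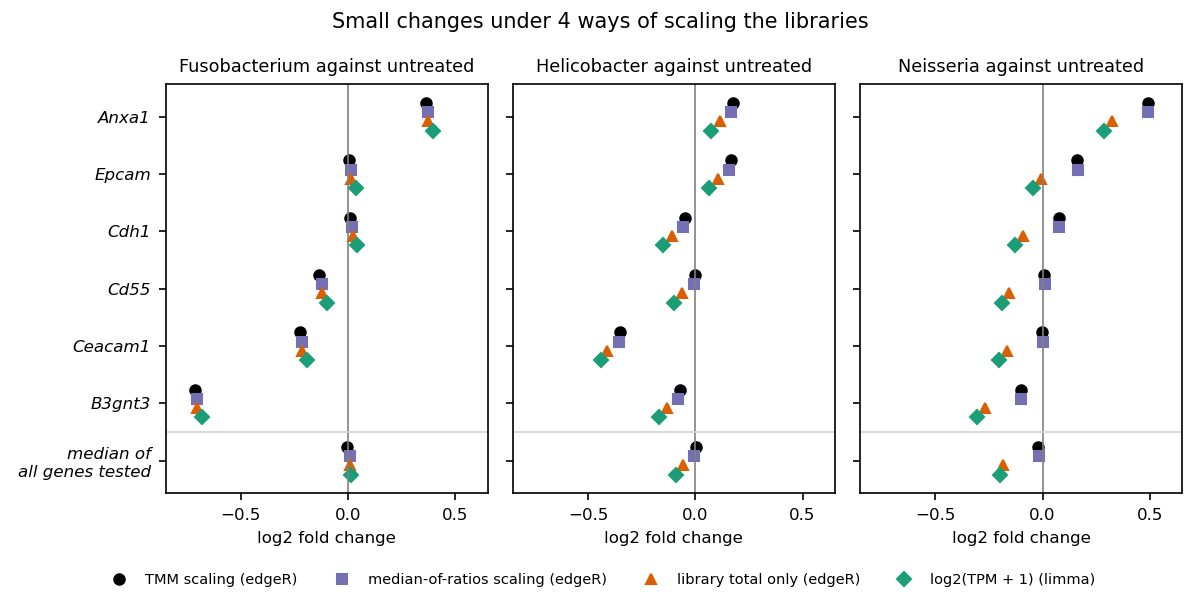
Log2 fold change against untreated organoids of the 6 genes other than Icam1, Vcam1 and Fut2, under 4 ways of scaling the libraries, with the median of all genes tested at the bottom. With Neisseria, the points without TMM or median-of-ratios scaling lie to the left by about the shift of all genes, so that Epcam, Cdh1 and Cd55 change sign, while Anxa1 stays above 0 and B3gnt3 below it.

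The bacteria also differed among themselves. Between Fusobacterium and Helicobacter, 7 of the 9 genes differed, where 65.3% of all genes did. Icam1 was 2.21-fold as high with Fusobacterium (log2 fold change 1.14 ± 0.06, adjusted p = 1.16e-13), and Vcam1 and Anxa1 were higher by 0.96 ± 0.17 and 0.19 ± 0.05. Fut2 changed by -1.44 ± 0.06 (adjusted p = 1.01e-15) and B3gnt3 by -0.64 ± 0.04 in the same comparison, and Epcam by -0.16 ± 0.05 and Cd55 by -0.13 ± 0.06. In TPM the 2 groups overlapped for Epcam and Cd55, with log2 ratios of mean TPM of -0.028 and -0.0017. The calls for Epcam and Cd55 are those under TMM scaling, and no alternative was tallied for them here. Ceacam1 did not pass (0.12 ± 0.07, adjusted p = 0.104, 95% interval -0.01 to 0.26), but it did with the library total alone (0.19, adjusted p = 0.0199) and on the log2(TPM + 1) scale (0.25, adjusted p = 0.0176), and in TPM every Fusobacterium library lay above every Helicobacter library. Cdh1 did not pass either (0.06 ± 0.04, adjusted p = 0.189, 95% interval -0.02 to 0.14), although in TPM every Fusobacterium library lay above every Helicobacter library for it too.

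Between Fusobacterium and Neisseria, 8 of the 9 genes differed, where 66.6% of all genes did. Lower with Fusobacterium were Vcam1 (log2 fold change -3.74 ± 0.12, adjusted p = 2.26e-17), Fut2 (-1.28 ± 0.06, adjusted p = 6.34e-15) and B3gnt3 (-0.61 ± 0.04, adjusted p = 1.63e-11), and these held in 23 of 23 alternatives. Icam1 differed by -0.16 ± 0.06 (adjusted p = 0.0174) and Anxa1 by -0.13 ± 0.05 (adjusted p = 0.034), but with the library total alone they were 0.02 and 0.05, so which of these bacteria had more of the 2 transcripts turns with the scaling. Under TMM scaling the call for Icam1 was lost without Fusobacterium replicate 2 or 3 or Neisseria replicate 1 (adjusted p up to 0.0899), and that for Anxa1 without any 1 of the Fusobacterium replicates or Neisseria replicate 1 or 2 (adjusted p up to 0.149). Ceacam1 differed by -0.22 ± 0.07 under TMM scaling, and there it passed in 12 of 12 analyses with 1 library left out. The difference was -0.05 (adjusted p = 0.556) with the library total alone and 0.01 on the log2(TPM + 1) scale. Epcam and Cd55 stood at -0.16 ± 0.05 and -0.14 ± 0.06 under TMM scaling, yet in TPM every Fusobacterium library lay above every Neisseria library for both. Cdh1 did not pass (-0.07 ± 0.04, adjusted p = 0.141, 95% interval -0.15 to 0.01), although in TPM every Fusobacterium library lay above every Neisseria library for it too.

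Between Helicobacter and Neisseria, 6 of the 9 genes differed, where 36.7% of all genes did. Lower with Helicobacter were Vcam1 (log2 fold change -4.69 ± 0.13, adjusted p = 2.55e-18), Icam1 (-1.30 ± 0.06, adjusted p = 1.58e-14), Anxa1 (-0.31 ± 0.05, adjusted p = 4.25e-05) and Ceacam1 (-0.35 ± 0.07, adjusted p = 0.000163). Fut2 was higher by 0.16 ± 0.05 (adjusted p = 0.0251), which was lost without Helicobacter replicate 2 (0.08, adjusted p = 0.245), the highest of the Helicobacter libraries, and without Neisseria replicate 2 or 3. Cdh1 was lower (-0.12 ± 0.04, adjusted p = 0.0143). In TPM the 2 groups overlapped for Cdh1 and for Ceacam1. B3gnt3, Epcam and Cd55 did not pass, at 0.03 ± 0.04, 0.00 ± 0.05 and -0.01 ± 0.06. B3gnt3 did pass with the library total alone (0.14, adjusted p = 0.00993) and on the log2(TPM + 1) scale (adjusted p = 0.0315). In TPM every Helicobacter library lay above every Neisseria library for B3gnt3 and Epcam, and the mean of Cd55 was 33.4 TPM with Helicobacter and 31.3 TPM with Neisseria, so the sign of its difference turns with the scaling.

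Ordered by mean TPM, the genes ran Anxa1, Cdh1, Epcam and B3gnt3 in each of the 4 groups, and Vcam1 was last in each. Below B3gnt3 the order was Icam1, Ceacam1, Cd55 and Fut2 with Fusobacterium, Fut2, Icam1, Ceacam1 and Cd55 with Helicobacter, and Icam1, Fut2, Ceacam1 and Cd55 with Neisseria, against Fut2, Ceacam1, Icam1 and Cd55 in untreated organoids. Neighbours in this order overlapped between libraries in 4 places: Cdh1 with Epcam and Ceacam1 with Cd55 in the Helicobacter group, Cd55 with Vcam1 in the Neisseria group, and Ceacam1 with Icam1 in untreated organoids. In this order Fut2 thus came next above Vcam1 with Fusobacterium (25.6 against 2.70 TPM), and next below B3gnt3 in untreated organoids (83.5 against 203.5 TPM).

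Other genes of the same families and pathways were counted from lists, with the 9 genes left out. Each count below is to be read beside the shares of all genes tested. These were 32.8% higher and 32.4% lower with Fusobacterium, 10.5% and 8.36% with Helicobacter, and 25.4% and 25.5% with Neisseria. With the library total alone, 863 of the 2687 genes that passed with Helicobacter rose, and 1984 of the 7386 with Neisseria. Among 9 tested of 12 listed surface ligands of leukocytes, mostly of the immunoglobulin family, 7 rose and 0 fell with Fusobacterium, 1 rose and 0 fell with Helicobacter, and 4 rose and 0 fell with Neisseria. Their median changes were 0.46, -0.08 and 0.52, against 0.00, 0.00 and -0.02 for all genes tested. With the library total alone, 2 fell with Helicobacter and 1 with Neisseria. Pvr, the poliovirus receptor and a ligand of the lymphocyte receptor DNAM-1, averaged 85.1 ± 1.19 TPM with Fusobacterium, 48.3 ± 2.50 TPM with Helicobacter and 74.1 ± 3.91 TPM with Neisseria, against 47.0 ± 2.87 TPM in untreated organoids, and its changes were 0.83 ± 0.05, 0.14 ± 0.05 (adjusted p = 0.0653) and 0.86 ± 0.05. F11r, the junctional adhesion molecule A, rose with each bacterium, by 0.46 ± 0.04, 0.19 ± 0.04 and 0.66 ± 0.04. Cxadr, the coxsackievirus and adenovirus receptor, rose by 0.41 ± 0.04 with Fusobacterium and by 0.41 ± 0.04 with Neisseria, and stood at -0.08 ± 0.04 with Helicobacter.

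Next to Icam1 on the same strand lie its relatives Icam4 and Icam5, 555 and 3255 bases downstream; they are named here after their values were seen. Icam5 had 39, 42 and 32 counts with Fusobacterium, 2, 1 and 1 with Helicobacter and 2, 5 and 3 with Neisseria, against 4, 0 and 6 in untreated organoids, and its change with Fusobacterium was 3.61 ± 0.53 (adjusted p = 2.47e-06). It did not pass with Neisseria (0.15 ± 0.76), where Icam1 rose. Icam4 had 4 to 28 counts per library and passed in no comparison with untreated organoids in edgeR, while limma on log2(TPM + 1) gave -0.60 with Neisseria (adjusted p = 0.032).

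Of 12 tested genes, of 16 listed, for fucosylation and blood group antigens, 3 rose and 5 fell with Fusobacterium, 2 rose and 3 fell with Helicobacter, and 3 rose and 2 fell with Neisseria, where the library total alone gave 1 and 5. Their medians were -0.08, -0.06 and 0.01, the last turning to -0.15 with the library total alone. Slc35c1, which carries GDP-fucose into the Golgi and so feeds Fut2, averaged 75.0 ± 2.70 TPM with Fusobacterium, against 133 ± 4.77 TPM in untreated organoids (-0.86 ± 0.04, adjusted p = 5.56e-14); its changes with Helicobacter and Neisseria were -0.07 ± 0.04 and 0.05 ± 0.04 and did not pass, the second turning to -0.12 with the library total alone. Fut4, a fucosyltransferase of the Lewis x type, fell with each bacterium, by 1.53 ± 0.14, 0.59 ± 0.13 and 1.92 ± 0.14 on the log2 scale, and stood at 3.86, 6.77 and 2.50 TPM against 10.9 TPM in untreated organoids. Fut8, the core fucosyltransferase of N-glycans, fell by 0.43 ± 0.05 with Fusobacterium and by 0.15 ± 0.05 with Helicobacter.

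Fut1, the other enzyme that makes H antigen and a neighbour of Fut2 at 27531 bases, was higher with each bacterium; it is named here after its values were seen. It had 23, 13 and 26 counts with Fusobacterium, 21, 19 and 22 with Helicobacter and 56, 42 and 45 with Neisseria, against 7, 2 and 9 in untreated organoids. Its changes were 1.93 ± 0.44, 1.76 ± 0.44 and 3.11 ± 0.41 and all passed, at levels of at most 1.97 TPM.

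Of 16 tested genes, of 19 listed, that extend or branch O-glycans beside B3gnt3, 9 rose and 6 fell with Fusobacterium, 1 rose and 2 fell with Helicobacter, and 4 rose and 7 fell with Neisseria, with medians of 0.49, -0.09 and -0.14. With the library total alone, 1 rose and 5 fell with Helicobacter and 3 rose and 7 fell with Neisseria, with medians of -0.15 and -0.31. The named genes moved in opposite directions. Gcnt3, the branching enzyme of mucin-producing epithelium, averaged 78.4 ± 3.59 TPM with Fusobacterium, 167 ± 7.10 TPM with Helicobacter and 78.4 ± 3.47 TPM with Neisseria, against 195 ± 3.03 TPM in untreated organoids, and changed by -1.35 ± 0.04, -0.13 ± 0.04 and -1.11 ± 0.04. Gcnt1, the core 2 branching enzyme also used in leukocytes, averaged 53.4 ± 1.77, 21.8 ± 1.52 and 43.6 ± 2.94 TPM in the same groups, against 15.1 ± 0.719 TPM in untreated organoids, and rose by 1.79 ± 0.06, 0.63 ± 0.06 and 1.74 ± 0.06. St3gal1, which caps core 1 glycans with sialic acid, rose by 2.59 ± 0.18 with Fusobacterium, to 5.46 ± 0.700 TPM, and by 1.49 ± 0.19 with Neisseria, to 2.16 ± 0.0692 TPM.

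**Figure D4:**
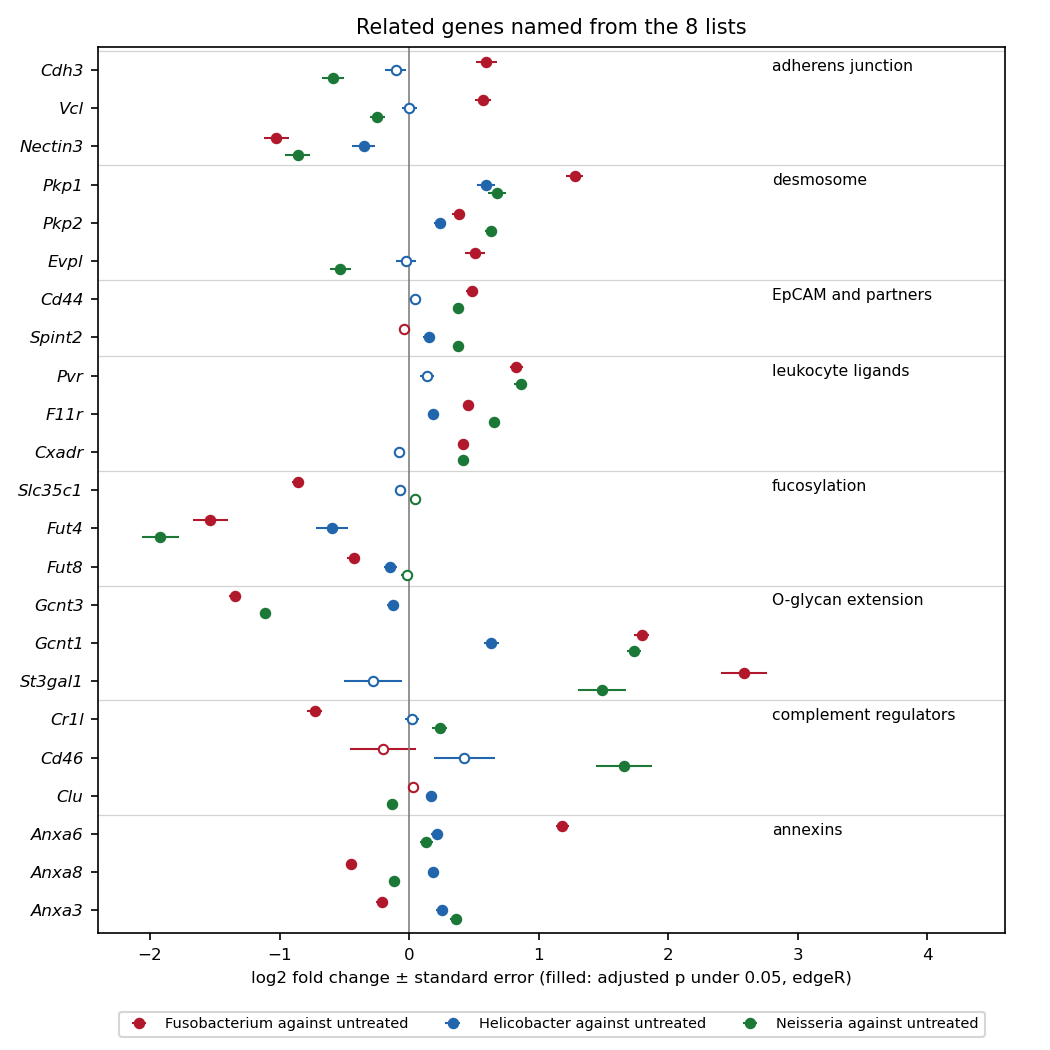
Log2 fold change ± standard error against untreated organoids of the 23 genes named from 8 lists of related genes; filled points passed an adjusted p of 0.05. Gcnt3, Fut4 and Nectin3 lie left of 0 with each bacterium, Gcnt1 and Pkp1 lie right of it, and Slc35c1 and Anxa6 stand apart from 0 with Fusobacterium, at -0.86 and 1.18.

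Junction genes beside Cdh1 moved in both directions, as did all genes tested. Of all genes, 32.8% rose and 32.4% fell with Fusobacterium, and 25.4% rose and 25.5% fell with Neisseria. Of 12 tested adherens junction genes, 6 rose and 2 fell with Fusobacterium, 2 rose and 2 fell with Helicobacter, and 2 rose and 4 fell with Neisseria, where the library total alone gave 1 and 9. Medians were 0.20, -0.01 and -0.07. Cdh3, P-cadherin, a neighbour of Cdh1, rose by 0.60 ± 0.08 with Fusobacterium and changed by -0.59 ± 0.09 with Neisseria, and Vcl, vinculin, did likewise at 0.57 ± 0.06 and -0.25 ± 0.06. Nectin3 fell with each bacterium, by 1.02 ± 0.09, 0.35 ± 0.09 and 0.86 ± 0.09 on the log2 scale. Of 9 desmosome genes, 3 rose and 3 fell with Fusobacterium, 3 rose and 1 fell with Helicobacter, and 3 rose and 4 fell with Neisseria; the plakophilin Pkp1 rose by 1.28 ± 0.07, 0.59 ± 0.07 and 0.68 ± 0.07 and Pkp2 by 0.38 ± 0.05, 0.24 ± 0.05 and 0.63 ± 0.05, while Evpl, envoplakin, rose by 0.51 ± 0.08 with Fusobacterium and changed by -0.53 ± 0.08 with Neisseria.

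Among 11 tested relatives, partners and proteases of EpCAM, 3 rose and 3 fell with Fusobacterium, 5 rose and 0 fell with Helicobacter, and 6 rose and 3 fell with Neisseria. With the library total alone, 1 rose and 2 fell with Helicobacter, and 3 rose and 4 fell with Neisseria. Medians were 0.00, 0.13 and 0.12, the last turning to -0.05 with the library total alone. Cd44, a hyaluronan receptor found with EpCAM, rose by 0.48 ± 0.04 with Fusobacterium and by 0.38 ± 0.04 with Neisseria. Spint2, an inhibitor of the proteases that cut EpCAM, rose by 0.15 ± 0.04 with Helicobacter and by 0.38 ± 0.04 with Neisseria.

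Of 6 tested complement regulators, of 10 listed beside Cd55, 1 rose and 3 fell with Fusobacterium, 1 rose and 2 fell with Helicobacter, and 2 rose and 1 fell with Neisseria, where the library total alone gave 1 and 4. Medians were -0.37, 0.04 and -0.13, the second turning to -0.02 with the library total alone. Cr1l, the mouse regulator Crry that does the work of CD55 and CD46 on many mouse cells, averaged 27.8 ± 0.828 TPM with Fusobacterium, 42.7 ± 2.05 TPM with Helicobacter and 46.1 ± 2.76 TPM with Neisseria, against 45.1 ± 0.955 TPM in untreated organoids; it changed by -0.73 ± 0.06 with Fusobacterium and by 0.24 ± 0.06 with Neisseria, where the library total alone gave 0.07 (adjusted p = 0.295). Cd46 rose by 1.66 ± 0.22 with Neisseria, to 1.99 ± 0.225 TPM. Clu, clusterin, was the most abundant of the list at 11920 TPM with Fusobacterium, 11950 TPM with Helicobacter and 9014 TPM with Neisseria, against 11400 TPM in untreated organoids, and changed by 0.03 ± 0.04, 0.17 ± 0.04 and -0.13 ± 0.04.

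Of 10 annexins beside Anxa1, 4 rose and 3 fell with Fusobacterium, 6 rose and 0 fell with Helicobacter, and 8 rose and 1 fell with Neisseria, where the library total alone gave 3 and 1. Medians were 0.09, 0.16 and 0.20, the last becoming 0.03 with the library total alone. Anxa6 averaged 149.9 ± 0.898 TPM with Fusobacterium, 70.0 ± 1.16 TPM with Helicobacter and 61.5 ± 4.04 TPM with Neisseria, against 64.6 ± 1.63 TPM in untreated organoids; its rise with Fusobacterium was 1.18 ± 0.05, while that with Neisseria (0.13 ± 0.05) became -0.04 with the library total alone. Anxa8 and Anxa3 fell with Fusobacterium, by 0.45 ± 0.04 and 0.21 ± 0.05 on the log2 scale, where Anxa1 rose.

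The genes whose pattern over the 12 libraries was most like each of the 9 were found by the root mean square difference of mean-centred log2 CPM. For Icam1 they were Micall2 (0.101), Arid3a (0.131) and Hsd17b11 (0.152), whose changes with Fusobacterium were 1.12, 1.30 and 0.95. The genes nearest to Vcam1, Sprr2b, Ddit3 and Sprr2e, differed from it by 0.541, 0.642 and 0.650. Vcam1 itself varied most of the 9 genes, with a root mean square value of 1.87 around its mean, so these distances are not comparable with the others. Fut2 was nearest to Casd1 (0.083), Ing5 (0.088) and Kdelc2 (0.093), B3gnt3 to Syncrip, Hltf and Caprin1 (0.046 to 0.050), and Anxa1 to Ppp1r2, Litaf and Ik (0.045 to 0.058). Among the genes nearest to Ceacam1 were Rps6ka3 (0.065) and Ranbp2 (0.082). Epcam was nearest to Sod1 (0.027), Cdh1 to Nadk (0.036) and Cd55 to Sdha (0.034), but these 3 genes themselves varied little, with root mean square values of 0.096, 0.056 and 0.070 around their means.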

How the data were processed

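RNA of 12 organoid libraries was counted. Per the file headers, the deposited columns hold total counts of reads for each gene, which are whole and not normalized, and TPM, which the authors computed before deposit. The genome build was GRCm38, per the submitters' processing notes; aligner, counter and use of strand are not given in the sources used here. Another 24 columns of RPKM and CPM were not used. The count test was edgeR 4.0.16 (R 4.3.3) with its default filter, TMM scaling and robust quasi-likelihood fits, two-sided, over 12805 genes that hold 99.96% of counts, with all 12 libraries in 1 model, an adjusted p threshold of 0.05 and no fold minimum. The common coefficient of biological variation was 5.71%, and replicates differed beyond counting noise. The 23 alternatives were DESeq2 1.42.0, other scalings and filters, limma 3.58.1 on log2(TPM + 0.1, 1 or 5), a replicate block, fewer groups, each library left out, and, chosen after seeing the data, only libraries with the column mark L1. The edgeR test was also run on simulated counts built on untreated levels. A small set of genes was changed there in 1 group, as many up as down. That run cannot test the choice of scaling.

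The 9 genes and the related lists were chosen with earlier results of these data known. From each list, up to 3 genes with the smallest adjusted p in the test of any difference were named. A few of the genes these rules select are not reported here. Coordinates are those of the deposited table, promoter windows those of RefSeq GRCm38.p6, and antisense partners those of GENCODE M21.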

Additional observations from a re-analysis of the deposited data

How the results depend on the processing

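Of the log2 changes of single genes under the alternatives, 881 kept direction and call, 69 lost the call, 27 gained it and 58 changed sign. This tally leaves out Cdh1, Epcam and Cd55 in the comparisons between bacteria. In Fusobacterium against Neisseria these genes were negative under TMM scaling, but their log2 ratios of mean TPM were 0.17, 0.08 and 0.09. For Cd55 in Helicobacter against Neisseria that ratio was 0.10, against -0.01 under TMM scaling. The sign changes within the tally follow. With Neisseria against untreated organoids, Cdh1 was -0.0900 with the library total alone and -0.13 in all 4 limma analyses of TPM, Epcam -0.00581 and -0.0447, -0.0448 and -0.0445 with pseudocounts of 1, 0.1 and 5, and Cd55 -0.158 and -0.17 to -0.20 (-0.190, -0.195 and -0.170 with pseudocounts of 1, 0.1 and 5), and -0.00171 with only libraries marked L1. Ceacam1 with Neisseria was 0.00141 with DESeq2, 0.00179 with median-of-ratios scaling, 2.4e-05 without a filter, 0.0074 with only the 2 groups, and -0.0618 to 0.0835 without 1 library. Cd55 with Helicobacter was -0.00837 with DESeq2, -0.00811 with median-of-ratios scaling, -0.0601 with the library total alone, -0.00148 without a filter, -0.0985, -0.101 and -0.0884 with limma at pseudocounts of 1, 0.1 and 5, and -0.0452 to 0.0229 without 1 library. With Fusobacterium, Epcam was -0.00201 without a filter, -0.00136 with only the 2 groups and -0.0227 to 0.0162 without 1 library, Cdh1 -0.0159 with only L1 libraries and -0.0159 to 0.0257 without 1 library. Cd55 with Neisseria was -0.00149 to 0.0231 without 1 library. Fusobacterium against Neisseria turned for Icam1 to 0.0175 with the library total and 0.0750, 0.0757 and 0.0721 with limma, for Anxa1 to 0.050 and 0.11, and for Ceacam1 to 0.0143, 0.0147 and 0.0125 with limma.

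The count of the 9 genes called was 5 to 7 with Fusobacterium, 2 to 4 with Helicobacter and 5 to 6 with Neisseria when 1 library was left out; the counts of 2 were without Helicobacter replicate 3 and without untreated replicate 2. Between bacteria it was 6 to 7 for Fusobacterium and Helicobacter, 5 to 8 for Fusobacterium and Neisseria, where the library total alone gave 4, and 4 to 6 for Helicobacter and Neisseria, and 7 to 9 for any difference. Among all genes it was 7795 to 8619 with Fusobacterium, 1594 to 3136 with Helicobacter and 5736 to 6748 with Neisseria. Between bacteria it was 7761 to 8479, 8047 to 8754 (8597 with the library total alone) and 3944 to 4703 of all genes in the same order. For any difference it was 9994 to 10643. With Helicobacter, 2419 genes were called in all, but 1594 without untreated replicate 1 and 1596 without untreated replicate 2. Of all genes called, 55.8% were higher with Helicobacter (32.1% with the library total alone), 49.9% with Neisseria (26.9%), 48.7% in Fusobacterium against Neisseria (65.9%) and 48.2% in Helicobacter against Neisseria (71.5%).

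The labels state no pairing by replicate number, and none was seen. Deviations of same-numbered libraries correlated at -0.096 to 0.092 over 18 pairs, those of others at -0.127 to 0.099. With 3 libraries per group these values cannot exclude a pairing. With a replicate block Cd55 with Fusobacterium (-0.13, adjusted p = 0.0513) and B3gnt3 with Neisseria (-0.10, adjusted p = 0.0551) lost their calls, and the counts of the 9 genes called were 6, 4 and 5. Among all genes, 8369, 2560 and 6535 were called with this block. Depth limits Vcam1 most, with 41 to 107 counts per library outside the Neisseria group.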
